A study of Mus musculus with 18 samples.

Results

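Nicotinic acetylcholine receptors are ion channels of the neuronal membrane that open when acetylcholine binds. Each channel is a ring of subunits encoded by separate *Chrna* (alpha) and *Chrnb* (beta) genes, and the subunits in the ring set its affinity, its calcium flow and where on the neuron it sits. In cortex and striatum the most common form combines the alpha4 and beta2 subunits, alpha7 subunits form a separate fast channel by themselves, and the alpha3 and beta4 subunits are abundant in the medial habenula, a small nucleus that lies next to the hippocampus and thalamus.

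The members described here were 6 subunit genes, *Chrna3*, *Chrna4*, *Chrna5*, *Chrna7*, *Chrnb2* and *Chrnb3*, of 16 nicotinic subunit genes in the annotation and 38561 genes counted. They were chosen from the subunit genes by name, with earlier results of these libraries known, above all the fold changes between genotypes in frontal cortex, so the cortical genotype values below are a description. *Pcm1* encodes pericentriolar material 1, a scaffold of centriolar satellites, the granules around the base of the cilium, and the study asked which transcripts differ in the brain when it is lost. RNA-seq was performed on frontal cortex, striatum and hippocampus of adult *Pcm1*-/- mice and their WT littermates, all on a C57 Bl6J background and without treatment, with 3 libraries in each of the 6 groups of genotype and region. The mutant line carried a gene trap from E14Tg2a.4 embryonic stem cells and had been bred to C57BL/6J for 3 or more generations, so DNA of the stem cell line may remain near *Pcm1* in mutant mice. The library names carry animal numbers, by which the same 3 WT and 3 mutant animals gave all regions.

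Each library held between 24950537 and 33405081 reads on genes. *Pcm1* itself was between 119.9 and 171.7 CPM (reads scaled to the size of each library) in WT libraries and between 11.8 and 17.6 CPM in mutant libraries, so every library matched its label. Markers of striatal projection neurons summed to between 6985 and 8951 CPM in the striatum and to at most 291.2 CPM elsewhere, and markers of cortical excitatory neurons summed to between 1823 and 3070 CPM in frontal cortex and hippocampus. Several libraries stood apart from their groups. In WT hippocampus replicate 3, all 6 markers of the medial habenula were at their highest of the 6 hippocampal libraries, summing to 262.7 CPM against 52.5 to 59.3 CPM in mutant hippocampus. In WT striatum replicate 3, choroid plexus markers summed to 5992 CPM against 30.5 to 164.7 CPM in the other 5 striatal libraries, and the thalamic marker *Tcf7l2* was 27.1 CPM against 6.37 to 8.97 CPM. In WT striatum replicate 1, cortical excitatory markers summed to 85.6 CPM against 12.7 to 31.1 CPM in the other striatal libraries. Choroid plexus markers also varied in hippocampus, summing to 6284 CPM in WT replicate 1 against 2352 and 2150 CPM in the other WT libraries, and to 220.1 CPM in mutant replicate 2 against 2364 and 4160 CPM in the other mutant ones. Values without WT hippocampus replicate 3 or WT striatum replicate 3 are given beside the results they moved.

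The 2 main subunit genes, *Chrna4* and *Chrnb2*, lie on different chromosomes. *Chrna4* (ENSMUSG00000027577) spans chr2:181018380-181043546 on the minus strand of GRCm38, and *Chrnb2* (ENSMUSG00000027950) spans chr3:89746195-89764632 on the minus strand. Their upstream sequences are shown because both genes were higher in mutant frontal cortex by nearly the same factor. They come from RefSeq (GRCm38.p6), end just before an annotated exon, read 5′ to 3′ along the gene, and have GC boxes, the letters GGGCGG or CCGCCC bound by Sp-family factors, in capitals:
Chrna4: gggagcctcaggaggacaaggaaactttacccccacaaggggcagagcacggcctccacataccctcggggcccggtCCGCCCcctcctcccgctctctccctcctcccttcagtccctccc
Chrnb2: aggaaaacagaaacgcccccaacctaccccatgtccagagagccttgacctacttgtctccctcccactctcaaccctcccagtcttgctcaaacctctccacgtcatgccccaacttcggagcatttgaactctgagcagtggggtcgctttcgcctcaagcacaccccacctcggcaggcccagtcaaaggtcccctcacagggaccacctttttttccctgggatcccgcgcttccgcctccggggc
The *Chrna4* sequence is 122 bases, chr2:181039306-181039427, and holds 1 GC box, with the 128 exonic bases that follow it left out. It precedes the RefSeq start and lies inside the *Chrna4* span given above, because the GENCODE span includes a transcript that begins farther upstream, and no GENCODE exon covers it. The *Chrnb2* sequence is 250 bases, chr3:89764633-89764882, and holds none. In the full 250 bases before the RefSeq start, *Chrna4* had 3 GC boxes and 74.4% G and C, and *Chrnb2* had 59.6% G and C. Of 32851 mouse promoters of that length, 32.74% held at least 1 GC box on either strand, and the median G and C content was 52.4%. Among the other members, *Chrna3* and *Chrna7* each had 1 GC box in the same window, and of the 2 starts listed for *Chrna5* the upstream one had 0 and the downstream one 4. No promoter was listed for *Chrnb3*.

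The other members lie in 3 places. *Chrna5* (chr9:54980880-55007779, plus strand) and *Chrna3* (chr9:55010111-55026562, minus strand) are neighbours in a cluster with *Chrnb4*, whose products often join in 1 channel. *Chrna7* is at chr7:63098692-63212569 on the minus strand. *Chrnb3* is at chr8:27368711-27399730 on the plus strand, 3482 bases from *Chrna6*, its usual partner in dopamine neurons, and 13.84 Mb from *Pcm1* on the same chromosome. The last 7252 bases of *Chrnb2* overlap *Adar*, the gene of an RNA editing enzyme on the other strand, so *Chrnb2* reads there are uncertain wherever the counting did not use strand, which the sources used here do not state.

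Levels were compared between genes as CPM per kilobase of exon. In WT frontal cortex, *Chrna4* was highest at 12.4 ± 0.35 (SD, n = 3 here and below) CPM per kilobase and *Chrnb2* next at 7.85 ± 0.03. *Chrna7* followed at 3.01 ± 0.60, *Chrna5* at 1.17 ± 0.31 and *Chrnb3* at 0.430 ± 0.099, and *Chrna3* was lowest at 0.102 ± 0.018. No library of a gene reached the level of the next gene in that order, although with coding length in place of exon length *Chrna5* and *Chrnb3* overlapped. *Chrna4* and *Chrnb2* together held between 80.6% and 81.9% of the summed level of the 6 genes in this region.

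In WT striatum the order began with *Chrnb2* at 7.83 ± 0.48 CPM per kilobase, *Chrna4* at 5.66 ± 1.82 and *Chrna7* at 3.79 ± 0.77. Libraries of *Chrnb2* overlapped with those of *Chrna4*, and those of *Chrna4* with those of *Chrna7*. The overlap of *Chrna4* with *Chrnb2* came from replicate 3 alone, with 7.74 CPM per kilobase of *Chrna4* against 4.37 and 4.86 in the other WT libraries, and there was none with coding length. *Chrna3* was 0.192 ± 0.055 CPM per kilobase, *Chrna5* 0.0613 ± 0.0080 and *Chrnb3* 0.00935 ± 0.00310. Striatal *Chrna5* rested on 5 or 6 reads in each WT library and striatal *Chrnb3* on 1 or 2. In WT hippocampus *Chrna4* was 10.5 ± 2.6, *Chrnb2* 9.02 ± 0.46 and *Chrna7* 4.60 ± 1.49 CPM per kilobase, and the means of *Chrna3*, *Chrna5* and *Chrnb3* were 1.74, 1.35 and 0.842. The first and last of these means rest on replicate 3, where *Chrna3* was 4.29 and *Chrnb3* 1.87 CPM per kilobase. In replicates 1 and 2 *Chrna5*, at 1.05 and 1.62, was above *Chrna3*, at 0.293 and 0.626, and above *Chrnb3*, at 0.206 and 0.453, and the last pair overlapped. With coding length, *Chrnb2* stood above *Chrna4* and *Chrnb3* above *Chrna5* in WT hippocampus, again with overlapping libraries.

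**Figure D1:**
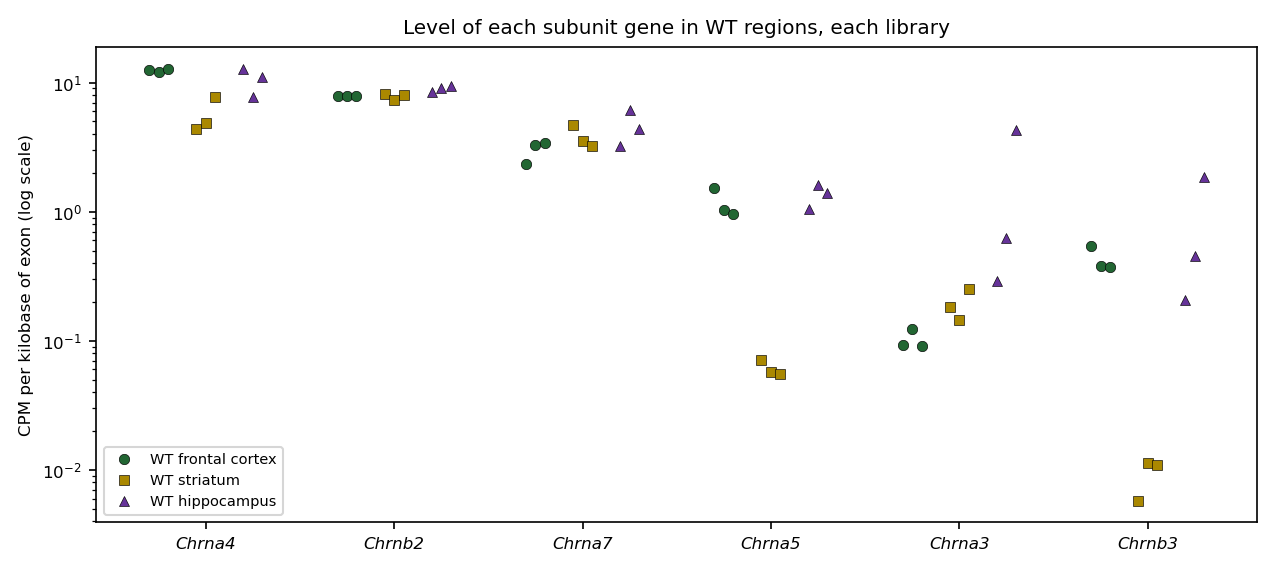
Level of each subunit gene in the 9 WT libraries, as CPM per kilobase of exon on a log axis, with 1 point for each library and a marker shape for each region. *Chrna4* and *Chrnb2* lie near 10 in frontal cortex and hippocampus, while striatal *Chrna5* and *Chrnb3* lie below 0.1.

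*Chrna4* differed between regions in WT mice and *Chrnb2* hardly did. *Chrna4*, which carries part of the acetylcholine binding site, was 62.2, 60.9 and 64.3 CPM in WT frontal cortex and 21.9, 24.4 and 38.9 CPM in WT striatum. The striatal libraries were all below the cortical ones, and the log2 fold change was −1.14 (SE 0.20, edgeR adjusted p = 0.0001781), or −1.43 without WT striatum replicate 3. WT hippocampus had 64.2, 38.5 and 55.0 CPM, which overlapped with frontal cortex (log2 fold change −0.25, SE 0.20, adjusted p = 0.344), with −0.42 without hippocampus replicate 1 and −0.074 without hippocampus replicate 2. Thalamus markers summed to 324.2 to 628.1 CPM in these hippocampal libraries, 188.7 to 191.4 CPM in WT frontal cortex and 140.1 to 257.5 CPM in WT striatum. Their part in the *Chrna4* level of WT hippocampus was not tested. *Chrnb2*, the partner subunit, was 65.7, 66.0 and 65.5 CPM in WT frontal cortex, 68.3, 61.0 and 67.5 CPM in WT striatum and 71.3, 76.6 and 78.9 CPM in WT hippocampus. The hippocampal libraries were all above the cortical and striatal ones, by 0.20 on the log2 scale (SE 0.06, adjusted p = 0.01285) over frontal cortex, and by 0.16 (adjusted p = 0.0628) once WT hippocampus replicate 3 was left out. The adjusted p was 0.0515 without frontal cortex replicate 1. In this way the ratio of *Chrna4* to *Chrnb2* per kilobase ran from 1.54 to 1.64 in WT frontal cortex and from 0.536 to 0.961 in WT striatum, where the highest value was that of replicate 3 and the others were 0.536 and 0.668. In WT hippocampus it was 1.5, 0.838 and 1.16.

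*Chrna5*, an accessory subunit that adds to alpha4 and beta2 channels, and *Chrnb3*, an accessory subunit of alpha6 channels, had few reads in striatum. *Chrna5* was 4.76, 3.20 and 3.02 CPM in WT frontal cortex and 0.220, 0.180 and 0.175 CPM in WT striatum, a log2 fold change of −4.23 (SE 0.28, adjusted p = 2.306e-09). In WT hippocampus it was 3.27, 5.06 and 4.33 CPM, overlapping with frontal cortex. *Chrnb3* had 226 reads over the 3 WT frontal cortex libraries and 5 reads over the 3 WT striatum libraries, a ratio of 46.1 after scaling for depth, with a 95% exact interval for counting error from 19.5 to 143.4. The same ratio for WT hippocampus was 94.3, and 35.2 (interval 14.7 to 110.7) without replicate 3, the library with high habenular markers.

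*Chrna7*, the subunit of the fast calcium-permeable channel, was higher in WT hippocampus (14.5, 27.8 and 19.8 CPM) than in WT frontal cortex (10.5, 14.9 and 15.3 CPM), although 1 hippocampal library lay within the cortical range. The log2 fold change was 0.61 (SE 0.20, adjusted p = 0.02311), but 0.34 (adjusted p = 0.165) without hippocampus replicate 2 and 0.44 (adjusted p = 0.122) without frontal cortex replicate 1. *Chrna3*, the ganglionic and habenular alpha subunit, was 0.490, 0.647 and 0.479 CPM in WT frontal cortex and 1.54, 3.30 and 22.6 CPM in WT hippocampus. All hippocampal libraries were above the cortical ones, with a log2 fold change of 4.08 (SE 0.77, adjusted p = 0.0004833) that became 2.16 (adjusted p = 0.0008406) without hippocampus replicate 3.

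WT striatum had 0.956, 0.756 and 1.33 CPM of *Chrna3*, above the cortical libraries (log2 fold change 0.91, SE 0.83, adjusted p = 0.3936). It was 0.20 (adjusted p = 0.876) with lane in the fit, and was called with the 6 libraries of these groups alone (adjusted p = 0.0438).

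Counted over the 6 members, 3 were called lower in WT striatum than in WT frontal cortex and 0 higher, where 24.1% of all 17545 genes tested were called lower (48.3% in either direction). In WT hippocampus against WT frontal cortex 3 were called higher, against 18.4% of all genes (37.7% in either direction), and 2 were called without hippocampus replicate 3 and 1 without frontal cortex replicate 1. A fit of those 6 libraries alone called 1, and ended the calls of *Chrna7* (adjusted p = 0.0781) and *Chrnb2* (adjusted p = 0.0535). In WT striatum against WT hippocampus 5 were called lower, against 18.2% of all genes (35.9% in either direction), and 4 were called without that library. A call here is an edgeR quasi-likelihood p under 0.05 after Benjamini-Hochberg adjustment over all genes tested.

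In frontal cortex all 6 members had a higher mean in *Pcm1*-/- mice than in WT. *Chrnb2* was 65.7, 66.0 and 65.5 CPM in WT and 82.3, 79.5 and 80.3 CPM in mutant libraries. The genotypes did not overlap, and the difference was 1.22-fold (log2 fold change 0.29, SE 0.05). *Chrna4* was 62.2, 60.9 and 64.3 CPM in WT and 79.6, 72.2 and 78.0 CPM in mutant libraries, again with no overlap and a difference of 1.22-fold (log2 fold change 0.29, SE 0.06). The ratio of *Chrna4* to *Chrnb2* per kilobase was between 1.51 and 1.62 in mutant frontal cortex, which overlapped with WT.

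*Chrnb3* was 3.47, 2.40 and 2.36 CPM in WT and 6.27, 6.49 and 6.08 CPM in mutant frontal cortex. Every mutant library was above every WT library, and the log2 fold change was 1.18 (SE 0.16), or 2.27-fold. This difference was known when the genes were listed and is given as a description. *Chrna7* was 10.5, 14.9 and 15.3 CPM in WT and 19.3, 19.8 and 16.3 CPM in mutant libraries, without overlap (log2 fold change 0.44, SE 0.15, and 0.28 without WT replicate 1). *Chrna3*, with 13 to 40 reads in a library, and *Chrna5* overlapped between genotypes, with log2 fold changes of 0.66 (SE 0.36, between 0.28 without mutant replicate 2 and 0.92 without mutant replicate 3) and 0.18 (SE 0.19, between 0.059 without WT replicate 3 and 0.42 without WT replicate 1, and 0.44 with lane in the fit).

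Of the 6 genes 3 were called higher in frontal cortex, *Chrna4*, *Chrnb2* and *Chrnb3*, and 0 lower, while 1.74% of all genes were called and 1.41% were called higher. As the list was made with this contrast known, nothing is read from that count. The genotypes did not overlap for 4 members, and all 4 were higher, where 21.3% of all genes did not overlap in either direction. The median log2 fold change was 0.365 over the 6 members and −0.007 over all genes. Of the calls, 3 remained without WT replicate 3 and 1 without WT replicate 1, and 0 without WT replicate 2 or without any 1 of the mutant libraries. With lane added to the fit of this region 1 call remained, that of *Chrnb3*. With all 18 libraries in the fit *Chrnb2* alone was called, and with lane added to that fit 0 members were. All fold changes stayed positive in these fits. *Adar*, which overlaps *Chrnb2*, had a log2 fold change of 0.02 (SE 0.07) in this region.

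**Figure D2:**
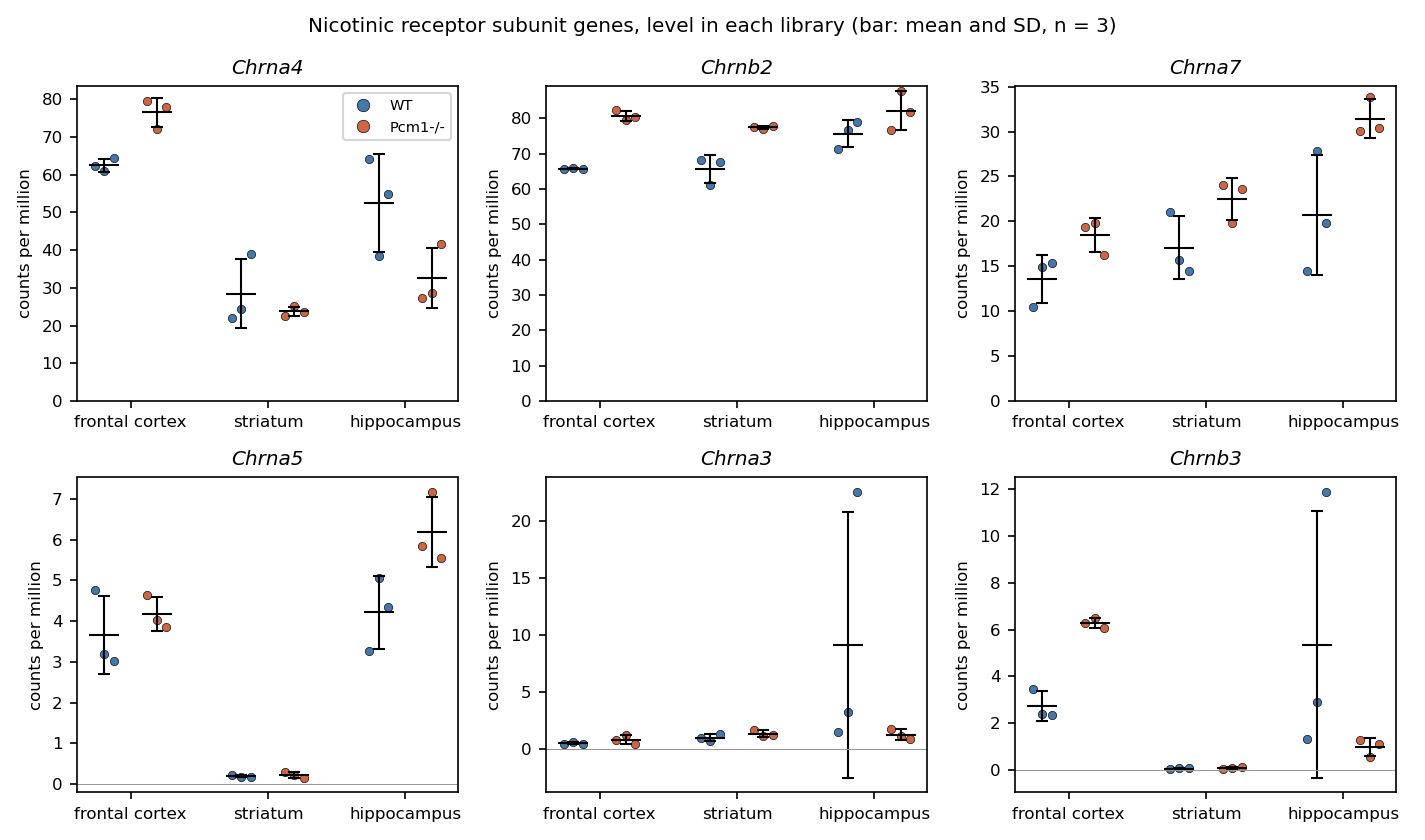
CPM of the 6 subunit genes in each of the 18 libraries, by region and genotype, with a linear axis from 0. Points are libraries, and bars show the mean and SD of 3. Mutant *Chrnb2* and *Chrna4* lie above WT in frontal cortex, and 1 WT hippocampal library sets the mean and SD of *Chrna3* and *Chrnb3*.

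Cell type markers also differed between the genotypes in frontal cortex. The 6 markers of cortical excitatory neurons summed to 2525 to 2586 CPM in WT and 2901 to 3070 CPM in mutant libraries, with 1 of 6 called higher. The 6 markers of upper layer neurons summed to 826.1 to 967.9 CPM in WT and 789.3 to 828.8 CPM in mutant libraries, with 5 of 6 lower by log2 fold change and 0 called. The 6 layer 6 markers summed to 148.9 to 172.8 CPM and 170.6 to 179.2 CPM, with 6 of 6 higher and 0 called. Endothelial markers (196.8 to 270.8 CPM and 187.7 to 199.8 CPM) had 5 of 6 lower, and hippocampal field markers (267.6 to 355.6 CPM and 272.0 to 313.6 CPM) 6 of 8, again with 0 called. The 11 markers of GABA interneurons summed to 1061 to 1335 CPM and 1330 to 1458 CPM, with 2 called higher, and the 8 markers of striatal projection neurons to 205.0 to 227.1 CPM and 259.9 to 291.2 CPM, also with 2 called higher. The sums of 6 oligodendrocyte markers (1903 to 2544 CPM in WT, 1712 to 1811 CPM in mutant) and of 6 microglia markers (302.2 to 404.9 CPM and 259.4 to 294.1 CPM) were lower in mutant libraries, with 0 of the 12 called. The 7 thalamus markers summed to 188.7 to 191.4 CPM in WT and 205.3 to 218.8 CPM in mutant libraries, with 1 called higher. By log2 fold change 3 of the 7 were higher and 4 lower, with a median of −0.242. The 7 dopamine neuron markers summed to 32.0 to 47.5 CPM and 48.5 to 54.1 CPM, with 0 of the 6 tested called and 4 of them lower in mutant libraries by log2 fold change. No marker of these lists was at 0 in every library, and their part in the subunit differences was not tested. In tissue samples of this kind, fewer cells of a type and less RNA per cell cannot be told apart.

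Subunits reach the cell surface with the help of dedicated chaperones, of which *Ric3* and *Tmem35a* (also called NACHO) are needed for alpha7 channels and promote others. *Ric3* was 98.8, 101.4 and 104.7 CPM in WT and 133.1, 133.9 and 142.6 CPM in mutant frontal cortex. The log2 fold change was 0.42 (SE 0.05, edgeR adjusted p = 0.01215). *Tmem35a* was 44.2, 44.3 and 45.1 CPM in WT and 59.4, 57.8 and 57.1 CPM in mutant libraries, a log2 fold change of 0.37 (SE 0.05, adjusted p = 0.01375). For both genes the genotypes did not overlap, and the same was so in striatum and hippocampus, where the log2 fold changes of *Ric3* were 0.26 (adjusted p = 0.136) and 0.27 (adjusted p = 0.401) and those of *Tmem35a* 0.36 (adjusted p = 0.140) and 0.23 (adjusted p = 0.460). Of all genes, 21.3% did not overlap in either direction in frontal cortex, 19.0% in striatum and 17.1% in hippocampus. Of the 8 assembly and trafficking genes listed, 2 were called higher and 0 lower in frontal cortex, where 1.74% of all genes were called and 1.41% called higher, and 0 in the other regions. The genotypes did not overlap for 5 of the 8 in frontal cortex, all higher. This list and those below were chosen with earlier results of these data known, so nothing is read from their counts. The most abundant of the 8, *Vsnl1* and *Nsg1*, had log2 fold changes of 0.09 and 0.21 in frontal cortex, without overlap between genotypes and neither called.

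Proteins of the Ly6 family sit on the membrane and tune nicotinic channels. *Lypd6b* was 12.7, 13.7 and 11.9 CPM in WT and 18.6, 18.1 and 17.4 CPM in mutant frontal cortex, without overlap (log2 fold change 0.49, SE 0.08, adjusted p = 0.02441). It was the 1 gene called of 7 tested in that list of 9, against 1.74% of all genes, and the abundant *Lynx1* and *Ly6e*, with log2 fold changes of 0.12 and 0.11, overlapped between genotypes. *Ache*, the enzyme that breaks down acetylcholine, was 54.8, 53.7 and 54.0 CPM in WT and 66.8, 63.2 and 64.0 CPM in mutant frontal cortex (log2 fold change 0.25, SE 0.05, adjusted p = 0.04694), the 1 gene called of 7 tested for acetylcholine synthesis, storage and breakdown, against the same share of all genes. The choline transporter *Slc44a1*, the highest of that list per kilobase, had a log2 fold change of 0.02. The calls of *Ric3*, *Tmem35a*, *Lypd6b* and *Ache* were all lost without any 1 of the mutant libraries, with adjusted p between 0.0595 and 0.245, and when lane was added to the fit of this region, with adjusted p between 0.0726 and 0.138. Leaving out WT replicate 1 ended the calls of *Lypd6b* and *Ache*, and leaving out WT replicate 2 those of *Ric3*, *Tmem35a* and *Ache*. With all 18 libraries in the fit *Lypd6b* was not called (adjusted p = 0.274), and with lane added to that fit neither *Lypd6b* (adjusted p = 0.373) nor *Ache* (adjusted p = 0.0746) was. No gene of these lists was called in striatum or hippocampus, where 0.0285% and 0.0171% of all genes were called.

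**Figure D3:**
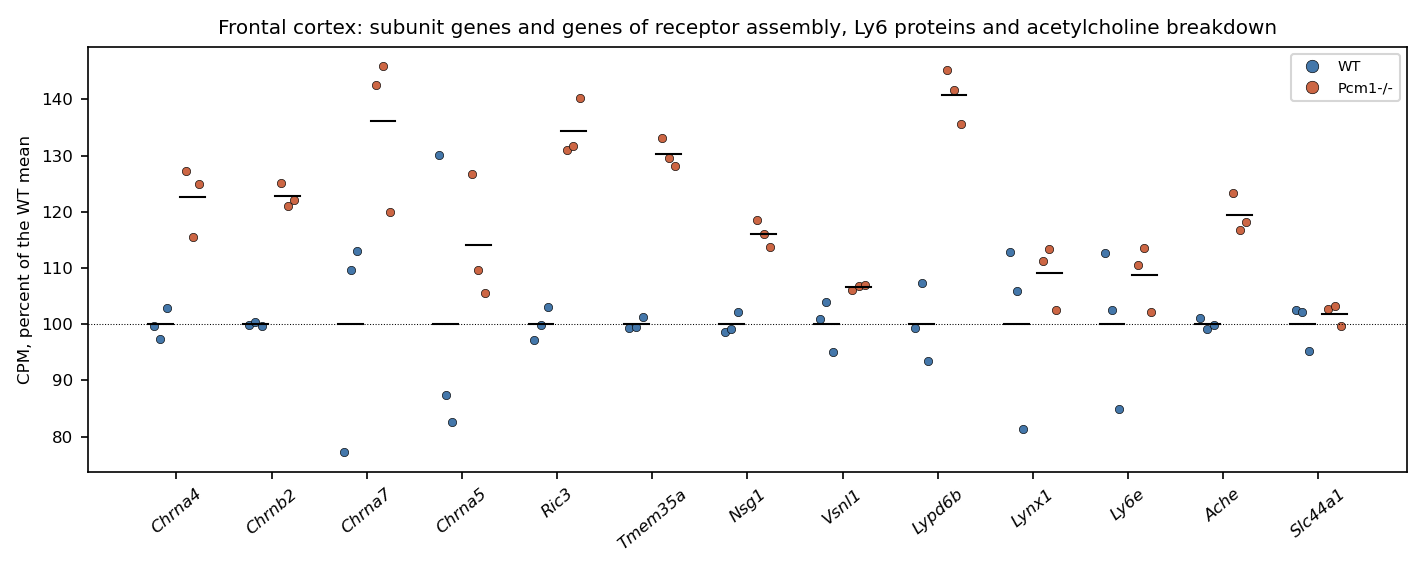
Level of 4 subunit genes and 9 genes of assembly, Ly6 proteins and acetylcholine handling in the 6 frontal cortex libraries, as percent of the WT mean. Points are libraries, and lines are the mean of 3. *Chrna4*, *Chrnb2*, *Chrna7*, *Ric3*, *Tmem35a*, *Nsg1*, *Vsnl1*, *Lypd6b* and *Ache* show mutant libraries above all WT libraries, while *Chrna5*, *Lynx1*, *Ly6e* and *Slc44a1* overlap.

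Of the other 10 subunit genes, 5 passed the minimum of 10 reads in a library (*Chrna1*, *Chrna2*, *Chrna6*, *Chrnb1* and *Chrnb4*) and 5 did not (*Chrna9*, *Chrna10*, *Chrnd*, *Chrne* and *Chrng*). None of the 5 tested was called in a genotype comparison, and 1 of them, *Chrna6*, had an unadjusted p under 0.05 in frontal cortex, as had 15.3% of all genes. *Chrna6*, next to *Chrnb3*, had 16, 12 and 5 reads in WT and 29, 29 and 17 reads in mutant frontal cortex (log2 fold change 0.99, SE 0.38, adjusted p = 0.2631). *Chrnb1*, a subunit of the muscle receptor and the highest of these genes per kilobase, had a log2 fold change of −0.06 (SE 0.21). *Eif4ebp1*, the nearest gene tested on the other side of *Chrnb3*, had one of −0.26 (SE 0.18, adjusted p = 0.5437). Within 5 Mb of *Chrnb3* 69 genes were tested, and 3, or 4.35%, were called in frontal cortex, *Hgsnat* and *Pomk* higher and *Adam18* lower, against 1.74% of all genes, and 0 in the other regions. Whether stem cell DNA around *Pcm1* reaches this stretch is not known from read counts, and its effect cannot be told apart from that of the loss of *Pcm1*.

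In the striatum no member was called, as against 0.0285% of all genes, and edgeR gave an unadjusted p under 0.05 for 2 members and for 13.5% of all genes. *Chrnb2* was 68.3, 61.0 and 67.5 CPM in WT and 77.5, 77.0 and 77.8 CPM in mutant libraries. Every mutant library was above every WT library, with a log2 fold change of 0.24 (SE 0.06, edgeR adjusted p = 0.1851), and 19.0% of all genes did not overlap. *Chrna7* was 21.0, 15.7 and 14.5 CPM in WT and 24.0, 19.8 and 23.6 CPM in mutant libraries, which overlapped through WT replicate 1, the library with most cortical markers (log2 fold change 0.40, SE 0.15, adjusted p = 0.3031, and 0.57 without that library). *Chrna4* was 22.6, 25.1 and 23.6 CPM in mutant striatum, inside the WT range, and its log2 fold change of −0.25 became 0.04 without WT replicate 3, the library with high choroid plexus and thalamic markers. *Chrna3* had 21 to 47 reads in a library (log2 fold change 0.43, SE 0.27). Its value was 0.25 without WT replicate 2 or mutant replicate 1, 0.67 without WT replicate 3, and 1.49 with all 18 libraries and lane in the fit. Striatal *Chrna5* had 4 to 8 reads and *Chrnb3* 1 to 3 reads in a library of either genotype, and a difference was not detectable at this depth. Striatal projection neuron markers summed to 6985 to 8033 CPM in WT and 8318 to 8951 CPM in mutant striatum, with 8 of 8 higher by log2 fold change, and oligodendrocyte markers to 9223 to 9422 CPM and 5596 to 9119 CPM, with 6 of 6 lower. The sums of upper layer markers (682.5 to 758.3 CPM in WT, 795.6 to 972.1 CPM in mutant) and of hippocampal field markers (366.0 to 409.4 CPM and 429.7 to 550.3 CPM) were higher without overlap. The single markers were split, with 3 of 6 upper layer markers and 5 of 8 hippocampal field markers higher by log2 fold change and 3 of each list lower. By log2 fold change, 6 of 6 microglia markers (386.1 to 543.0 CPM in WT, 343.0 to 393.7 CPM in mutant), 7 of 7 thalamus markers (140.1 to 257.5 CPM and 125.5 to 138.1 CPM) and 6 of 6 cortical excitatory markers (14.05 to 85.64 CPM and 12.68 to 21.49 CPM) were lower. None of these was called, and their part in the subunit differences was not tested. All WT striatum libraries came from lane 5 and the mutant ones from lanes 3 and 4, which means that effects of lane and of genotype cannot be told apart there.

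In the hippocampus no member was called either, as against 0.0171% of all genes, although 5 of 6 had an unadjusted p under 0.05, as had 9.89% of all genes. *Chrnb3* was 1.31, 2.89 and 11.9 CPM in WT and 1.28, 0.545 and 1.11 CPM in mutant libraries. The lowest WT and highest mutant library were nearly equal, and the log2 fold change of −2.46 (SE 0.78, adjusted p = 0.4182) became −1.10 (SE 0.46, adjusted p = 0.5603) without WT replicate 3. *Chrna3* was 1.54, 3.30 and 22.6 CPM in WT and 1.81, 1.13 and 0.898 CPM in mutant libraries, which overlapped. Its log2 fold change was −2.86 (SE 0.95, adjusted p = 0.428) with WT replicate 3 and −0.94 (SE 0.43, adjusted p = 0.5686) without it.

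These high values sat in the library with habenular markers. *Chrnb4*, the partner of *Chrna3* in habenular channels, was 18.5 CPM in WT replicate 3 and 0.252 to 3.98 CPM in the other 5 hippocampal libraries. *Pou4f1*, a transcription factor of habenular neurons, was 21.9 CPM there and 0.126 to 2.17 CPM elsewhere, and *Gpr151*, a receptor of the same neurons, 25.1 CPM against 0.629 to 1.41 CPM. *Chat*, which makes acetylcholine, had 109 reads in that library and at most 5 in the others. Habenular markers at their highest were 6 of 6 in this library and 0 of 6 in each of the others, and their part in the *Chrna3* and *Chrnb3* differences was not tested.

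*Chrna4* was 64.2, 38.5 and 55.0 CPM in WT and 27.3, 28.5 and 41.7 CPM in mutant hippocampus. The genotypes overlapped in 1 library of each, with a log2 fold change of −0.71 (SE 0.22, adjusted p = 0.4182) and of −0.68 without WT replicate 3. *Tcf7l2*, a transcription factor of thalamic neurons, was 108.2, 48.3 and 106.1 CPM in the WT libraries and 6.78, 6.80 and 51.0 CPM in the mutant ones, and all 7 thalamic markers were lower in mutant libraries by log2 fold change. Their sum ran from 324.2 to 628.1 CPM in WT and from 173.7 to 354.0 CPM in mutant hippocampus, none at 0 in every library, and their part in the *Chrna4* difference was not tested. The ratio of *Chrna4* to *Chrnb2* per kilobase was 0.542 to 0.851 in mutant hippocampus, overlapping with the WT range in 1 library of each genotype. The libraries with most *Tcf7l2*, WT replicates 1 and 3, were also those with most *Chrna4*.

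*Chrna7* and *Chrna5* went the other way in hippocampus. *Chrna7* was 14.5, 27.8 and 19.8 CPM in WT and 30.1, 33.9 and 30.3 CPM in mutant libraries, without overlap (log2 fold change 0.58, SE 0.21, adjusted p = 0.4415). *Chrna5* was 3.27, 5.06 and 4.33 CPM in WT and 5.85, 7.17 and 5.54 CPM in mutant libraries, also without overlap (log2 fold change 0.53, SE 0.20, adjusted p = 0.4584). With *Chrnb3*, 3 members did not overlap between the genotypes, as did 17.1% of all genes. Without WT replicate 3 the fold changes were 0.55 and 0.54 on the log2 scale. For *Chrna7* the value was 0.38 without WT replicate 1 and 0.85 without WT replicate 2. *Chrnb2* overlapped between genotypes, with a log2 fold change of 0.10 (SE 0.08), or 0.056 without mutant replicate 2 and 0.060 without WT replicate 1. Markers of cortical excitatory neurons, which hippocampal pyramidal cells share, summed to 1823 to 2393 CPM in WT and 2392 to 3018 CPM in mutant hippocampus. Oligodendrocyte markers summed to 4854 to 9603 CPM in WT and 3668 to 6002 CPM in mutant hippocampus, with 6 of 6 lower in mutant libraries by log2 fold change and 0 called. Hippocampal field markers summed to 700.2 to 757.1 CPM in WT and 789.3 to 927.4 CPM in mutant hippocampus, and endothelial markers to 168.7 to 233.7 CPM and 147.7 to 159.3 CPM, again with 0 called. The part of these markers in the hippocampal differences was not tested.

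**Figure D4:**
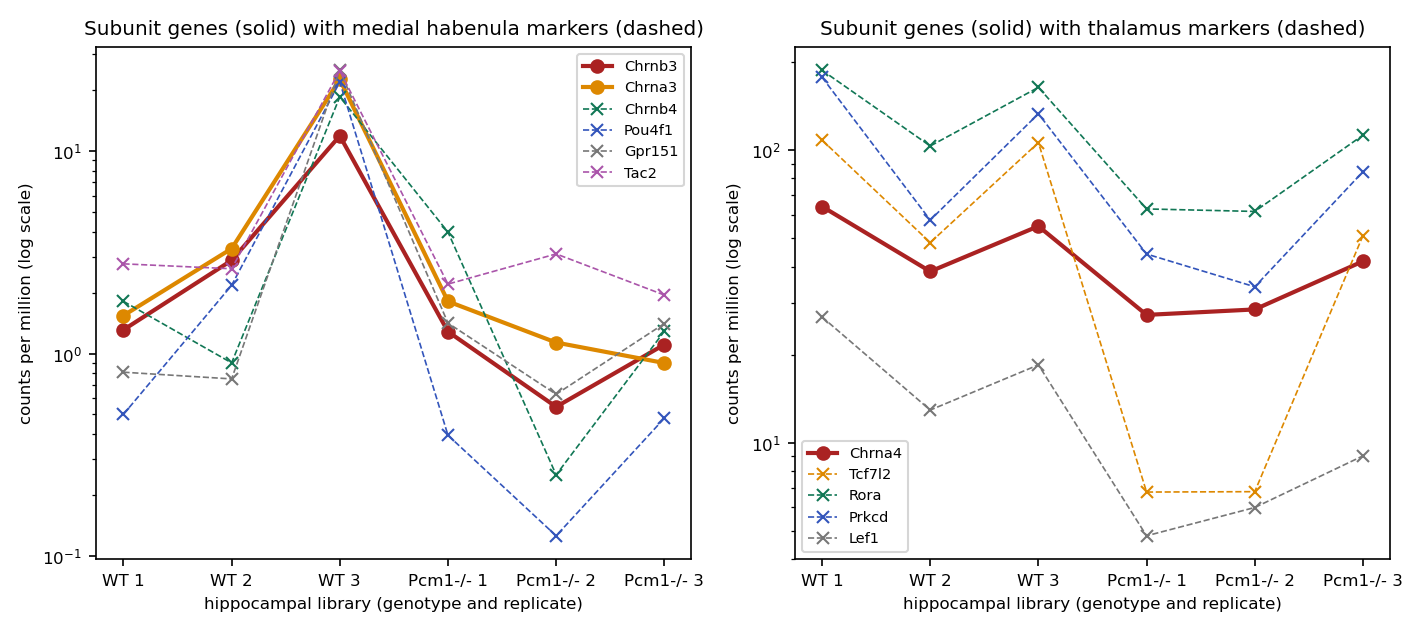
CPM on a log axis in the 6 hippocampal libraries, for *Chrnb3* and *Chrna3* with 4 medial habenula markers (left) and *Chrna4* with 4 thalamus markers (right). Lines join the values of 1 gene and imply no order of libraries. WT replicate 3 is highest for every gene on the left, and WT replicates 1 and 3 are the highest on the right.

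*Chrna7* had genotype log2 fold changes of 0.44, 0.40 and 0.58 in frontal cortex, striatum and hippocampus, none called. *Chrnb2* had 0.29, 0.24 and 0.10, of which the first was called. *Chrna4* had 0.29, −0.25 and −0.71, and *Chrnb3* 1.18 in frontal cortex against −2.46 in hippocampus. In 1 fit of all 18 libraries no member was called for a genotype effect that differed between regions, and 0.0114% of all genes were. Unadjusted, *Chrnb3*, *Chrna3* and *Chrna4* had p under 0.05, as had 5.54% of all genes, and DESeq2 called *Chrnb3* and *Chrna3* in the same comparison. This comparison contains the cortical fold changes that were known when the genes were listed, so these counts are a description and nothing is read from them.

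**Figure D5:**
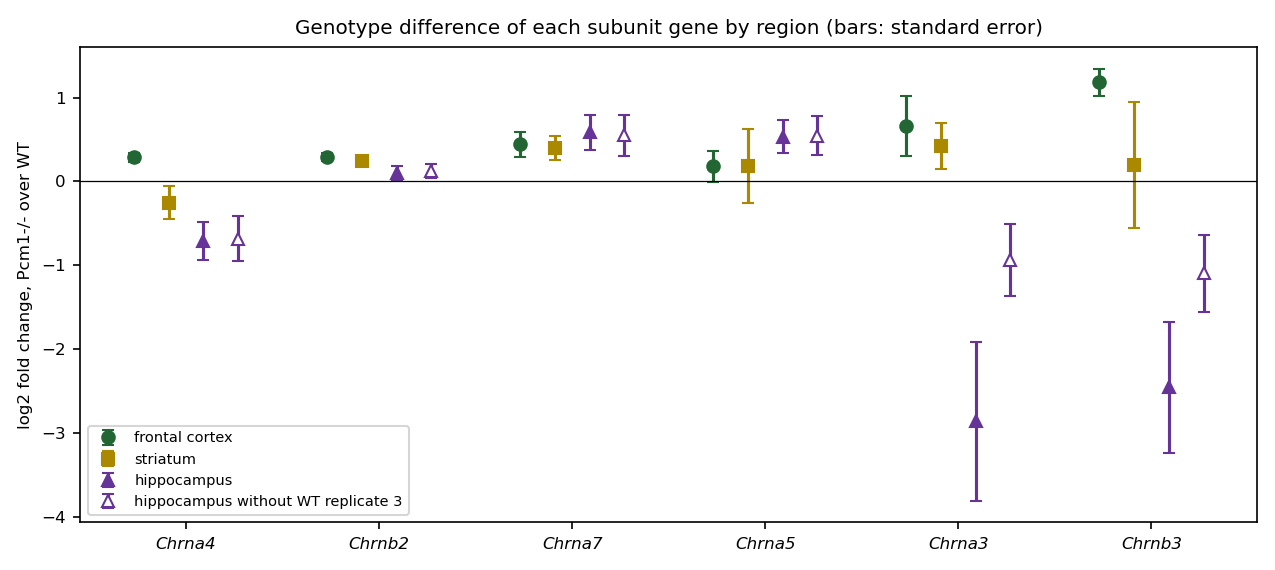
Log2 fold change of *Pcm1*-/- over WT for each subunit gene in each region, with standard errors, and for hippocampus also without WT replicate 3 (open triangles). *Chrna7* lies above 0 in all regions, and the hippocampal values of *Chrna3* and *Chrnb3* move from below −2 to near −1 without that library. Striatal *Chrna5* and *Chrnb3* rest on 1 to 8 reads in a library.

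The genes most alike to each member over the 18 libraries were found by Pearson correlation of log2 CPM among 12870 genes. All correlations are descriptions, since the libraries share regions and animals. *Chrna5* was closest to *Schip1* (r = 0.992), *Lrfn2* (0.991) and *Tmem200a* (0.991), and *Chrna4* to *Lhfp* (0.968), *Cpne9* (0.960) and *Adra1b* (0.956). *Chrnb3* was closest to *Fzd1* (0.965), *Mreg* (0.952) and *Cbln4* (0.951). *Chrna7* was closest to *Fbxo21* (0.930), *Trmt6* (0.920) and *Seh1l* (0.914), and *Chrnb2* to *Gdpd1* (0.915), *Slc35b1* (0.906) and *Yipf5* (0.898). *Chrna3* had the lowest values, with *Kctd12b* (0.860), *Ano1* (0.806) and *Rab33b* (0.753).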

How the data were processed

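RNA was isolated from dissected tissue and made into libraries with KAPA stranded mRNA kits. Per the labels and the study's methods, the authors trimmed reads with Trim Galore and cutadapt, mapped them with STAR (GRCm38), used those with 1 genomic location and deposited raw HTSeq counts per Ensembl gene, 1 table for each library. The strand setting is not given in the sources used here. The lines that name no gene held between 10.8% and 13.2% of each table and were left out. Symbols, positions and exon lengths came from GENCODE M21 by Ensembl ID (36723 of 38561 matched), and CPM and levels per kilobase used TMM factors over all libraries.

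Genes with at least 10 reads in 1 library or more (17545) were tested with edgeR 4.0.16 (R 4.3.3) by quasi-likelihood with Benjamini-Hochberg adjustment. Genotypes were compared within each region, 3 against 3, and WT regions and the difference of the genotype effect between regions in 1 fit of all 18 libraries. Standard errors were taken from the log2 fold change and the F statistic of the same test. Named genes were the members, genes of 4 pathway lists called in a genotype comparison with the 2 highest per kilobase in each list, the nearest tested genes, the 3 most alike genes and *Pcm1*. *Chrna6*, *Adar*, *Chat*, the marker genes given singly and the genes called near *Chrnb3* were named after their values were seen. The members and lists were chosen with earlier results of these data known.

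In hippocampus, the same-numbered WT and mutant libraries deviated together from their group means (correlation 0.124 to 0.609 across genes, over 3 pairs), and the replicate number as a block changed no member's call there. Libraries of 1 animal also deviated together across regions (0.0426 to 0.539 in WT and 0.128 to 0.373 in mutant mice). No pair of replicates was within sampling noise (chi-square per degree of freedom from 7.02 to 59.0 over 18 pairs). Intervals cover counting error only. The steps were tested on simulated data, and alternatives included DESeq2 1.42.0, other filters and scaling, blocks, lane and leaving out each library.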

Additional observations from a re-analysis of the deposited data

Results flagged for a closer look

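The genotype difference of *Chrnb3* had opposite signs in 2 regions, with no overlap between genotypes in either. In frontal cortex every mutant library was above every WT library (log2 fold change 1.18), and in hippocampus every mutant library was below every WT library (log2 fold change −2.46). In the 1 fit of all 18 libraries, the hippocampal value less the cortical one was −3.63 on the log2 scale (SE 0.75). It contains the cortical value, which was known when the genes were listed, so it is a description with no test. In hippocampus, the gap between the lowest WT library (1.31 CPM) and the highest mutant library (1.28 CPM) was small, and without WT replicate 3, where medial habenula markers summed to 262.7 CPM, the log2 fold change was −1.10 (SE 0.46). The part of these markers in the difference was not tested.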

How the results depend on the processing

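The 3 members called in frontal cortex became 1 with all 18 libraries in the fit, 0 with lane added to it, 1 with lane within the region, and between 0 and 3 with each library left out in turn. In hippocampus 1 member (*Chrnb3*) was called with all 18 libraries in the fit in place of 0. In WT hippocampus against WT frontal cortex 1 was called with the 6 libraries of those groups alone, and between 1 and 4 with each library left out. DESeq2 called 2 members for genotype by region in place of 0, a comparison that contains the cortical values known when the genes were listed. The no-filter fit gave *Chrnb2* 0.0024 in WT striatum against WT frontal cortex, and leaving out libraries gave −0.033 to 0.050. In striatum between genotypes, *Chrna5* was −0.0029 with all 18 libraries and lane, and leaving out libraries gave −0.042 to 0.395 for *Chrna5*, −0.228 to 0.482 for *Chrnb3* (1 to 3 reads a library) and −0.410 to 0.037 for *Chrna4*. *Chrnb3* in WT hippocampus against WT frontal cortex was 0.974 with all libraries and ran from −0.390 (without hippocampus replicate 3) to 1.43. Among all recomputed counts of members 98 stayed within 1.5 times the main count, 2 were higher and 10 lower. The cause was not tested, apart from fewer libraries when 1 is left out.

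The replicate number as a block left 3 members called in frontal cortex, 0 in striatum and 0 in hippocampus. Same-numbered libraries correlated at 0.0308 or more in frontal cortex (mean 0.241, against −0.122 for pairs of different numbers) and at −0.346 or more in striatum. Not every pair there passed 0.1, so the numbers were not taken to pair the libraries. The animal as a block left 3, 3 and 5 members called between WT regions and 0 for genotype by region. With 3 libraries a group, genes under 10 reads a library, striatal *Chrna5* and *Chrnb3* among them, allow no statement on small differences.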
